A study of Homo sapiens with 32 samples.

Results

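The 10 genes that make the major spliceosomal snRNAs read by RNA polymerase II were followed in ATAC-seq data from human HEK293T cells. They are the U1 genes RNU1-1, RNU1-2, RNU1-3 and RNU1-4, the U2 genes RNU2-1 and RNU2-2P, the U4 genes RNU4-1 and RNU4-2, and the U5 genes RNU5A-1 and RNU5B-1. A counted window belonged to a gene when its centre lay within 500 bp of the transcript start annotated in GENCODE release 44 on hg38. This gave 20 windows at 9 of the 10 genes, out of 212358 windows of 401 bp in the deposited table. RNU2-1 had no counted window.

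Each snRNA is the core of a small ribonucleoprotein of the spliceosome, the machine that removes introns from pre-mRNA. U1 pairs with the 5′ splice site, U2 pairs with the branch point, U4 holds U6 inactive until the spliceosome is activated, and U5 touches the exon ends during splicing. Their promoters have no TATA box. A proximal sequence element recruits the SNAPc complex, and a distal sequence element often holds an octamer bound by POU2F1 (Oct-1) beside a site for ZNF143, a zinc finger activator of snRNA and other small RNA genes.

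ATAC-seq uses the Tn5 transposase to cut and tag open DNA, so counts in a window measure accessibility. All libraries came from HEK_CloneZD29, a single clone of HEK293T, cells derived from human embryonic kidney, in which ZNF143 has an inducible degron tag, so controls and treated cells share the tag; the genotype is written out in the labels of replicates 1 to 8 and the same clone name is given for replicates 9 to 16. The compared groups were 8 control libraries labelled DMSO and 8 libraries from cells given 50 nM dTAGV-1, a compound that sends the tagged protein for degradation, for 30 minutes. Counts covered replicates 9 to 16. Replicates 1 to 8 (8 control libraries, titled DMSO but with treatment given as none, and 8 dTAGV-1 libraries) are linked to a summit list with 1 score per summit and no value per library. ZNF143 protein was not analysed here. Nothing in the labels says that replicates are separate cultures, so p-values measure only the spread between these samples.

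The upstream sequences show what the copies share and where they differ. The 250 bases before the start were read from hg38 on the strand of the gene, and none overlapped an annotated UTR. Of these, 5 are printed, 1 for the identical U1 pair and 4 for genes with a counted window that held a searched motif. The octamer ATTTGCAT, the proximal element core ACCNTNA and the ZNF143 core are in capitals. RNU2-1, which held an octamer but had no counted window, is not printed. Their positions are chr1:16666949-16667198 (minus strand) for RNU1-3, chr11:62841810-62842059 (minus strand) for RNU2-2P, chr12:120291904-120292153 (minus strand) for RNU4-2, chr15:65295801-65296050 (plus strand) for RNU5A-1 and chr15:65304427-65304676 (plus strand) for RNU5B-1.
RNU1-3: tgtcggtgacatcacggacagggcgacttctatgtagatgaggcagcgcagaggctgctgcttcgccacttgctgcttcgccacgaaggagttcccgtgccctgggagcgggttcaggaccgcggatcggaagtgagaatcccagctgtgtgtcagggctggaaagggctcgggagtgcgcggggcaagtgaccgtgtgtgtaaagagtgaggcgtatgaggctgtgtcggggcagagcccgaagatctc
RNU2-2P: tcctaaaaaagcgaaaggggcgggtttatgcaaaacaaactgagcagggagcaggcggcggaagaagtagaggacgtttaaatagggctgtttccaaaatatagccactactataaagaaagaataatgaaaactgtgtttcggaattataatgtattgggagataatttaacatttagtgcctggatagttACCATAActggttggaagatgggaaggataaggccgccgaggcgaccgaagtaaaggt
RNU4-2: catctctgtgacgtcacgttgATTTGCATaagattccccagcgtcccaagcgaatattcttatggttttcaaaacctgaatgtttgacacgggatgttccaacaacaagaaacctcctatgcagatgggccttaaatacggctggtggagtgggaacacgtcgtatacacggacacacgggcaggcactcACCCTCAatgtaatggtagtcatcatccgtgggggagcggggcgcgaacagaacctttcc
RNU5A-1: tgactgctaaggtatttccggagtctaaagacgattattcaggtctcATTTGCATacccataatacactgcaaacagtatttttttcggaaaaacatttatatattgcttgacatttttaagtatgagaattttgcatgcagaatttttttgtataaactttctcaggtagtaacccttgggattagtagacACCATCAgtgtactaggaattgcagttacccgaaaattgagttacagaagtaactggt
RNU5B-1: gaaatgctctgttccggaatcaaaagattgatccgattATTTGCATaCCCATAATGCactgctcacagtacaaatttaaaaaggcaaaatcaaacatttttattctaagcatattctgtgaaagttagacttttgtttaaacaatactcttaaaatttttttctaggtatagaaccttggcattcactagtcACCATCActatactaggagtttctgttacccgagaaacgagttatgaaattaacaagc

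RNU1-3 and RNU1-4 were identical over the 250 bases before the start, the 164-base gene and the 250 bases after it. The 4 U1 genes were identical over the gene itself, and their upstream stretches shared 95.6% to 100% of aligned columns. The other pairs had diverged outside the gene. RNU5A-1 and RNU5B-1 shared 94% of aligned columns in the gene and 63.6% upstream, RNU4-1 and RNU4-2 shared 97.2% and 48.2%, and RNU2-1 and RNU2-2P shared 95.8% and 48.9%. Identity near 48% is that of a free alignment with gaps of 2 stretches of 250 bases and was not set against unrelated sequence.

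The octamer and the ZNF143 core were searched on both strands from 250 bases before to 50 after the start. The proximal core was searched on the gene's strand, lying wholly between 80 and 30 bases before the start. Each was found at some members. The octamer lay at RNU4-2 (first base at -229), RNU5A-1 (-203) and RNU5B-1 (-212) on the gene's strand and at RNU2-1 (-221) on the other strand. It occurred in 2.28% of the 62663 annotated promoters of that length. The proximal core lay at RNU2-2P (-58), RNU4-2 (-60), RNU5A-1 (-58) and RNU5B-1 (-58), and in 2.75% of all promoters. RNU4-2 and both U5 genes held both, as 58 of the 62663 promoters (0.0926%) and 14 of the 1901 promoters of snRNA-type genes (0.736%) did. The snRNA type takes in every gene so annotated, whether active or not, so its shares do not describe active snRNA promoters. No U1 gene and not RNU4-1 held an exact match to any of these motifs. Near matches, such as ATTAGCAT and CCCATAGTGC upstream of RNU4-1, were not counted at any gene.

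Only RNU5B-1 among the 10 genes held the ZNF143 core, which 1.13% of all promoters and 1.21% of snRNA-type promoters held; a looser form of the core, held by 2.73% of all promoters, added no other member. The RNU5B-1 core started 9 bases after the first base of its octamer and RNU5A-1 held a near-identical block at the same distance. The blocks are shown side by side with the octamer and the 10 bases of the core, or their counterpart, in capitals.
RNU5A-1: tctcATTTGCATaCCCATAATACactg
RNU5B-1: gattATTTGCATaCCCATAATGCactg
The 10 bases differed by G9A, counted from 1 at the 5′ end with the base of RNU5B-1 first, and this change takes RNU5A-1 out of the core as searched. The octamer and core occurred together in 16 of the 62663 promoters, or 0.0255%. A match is a run of letters and not a measured binding site.

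**Figure D1:**
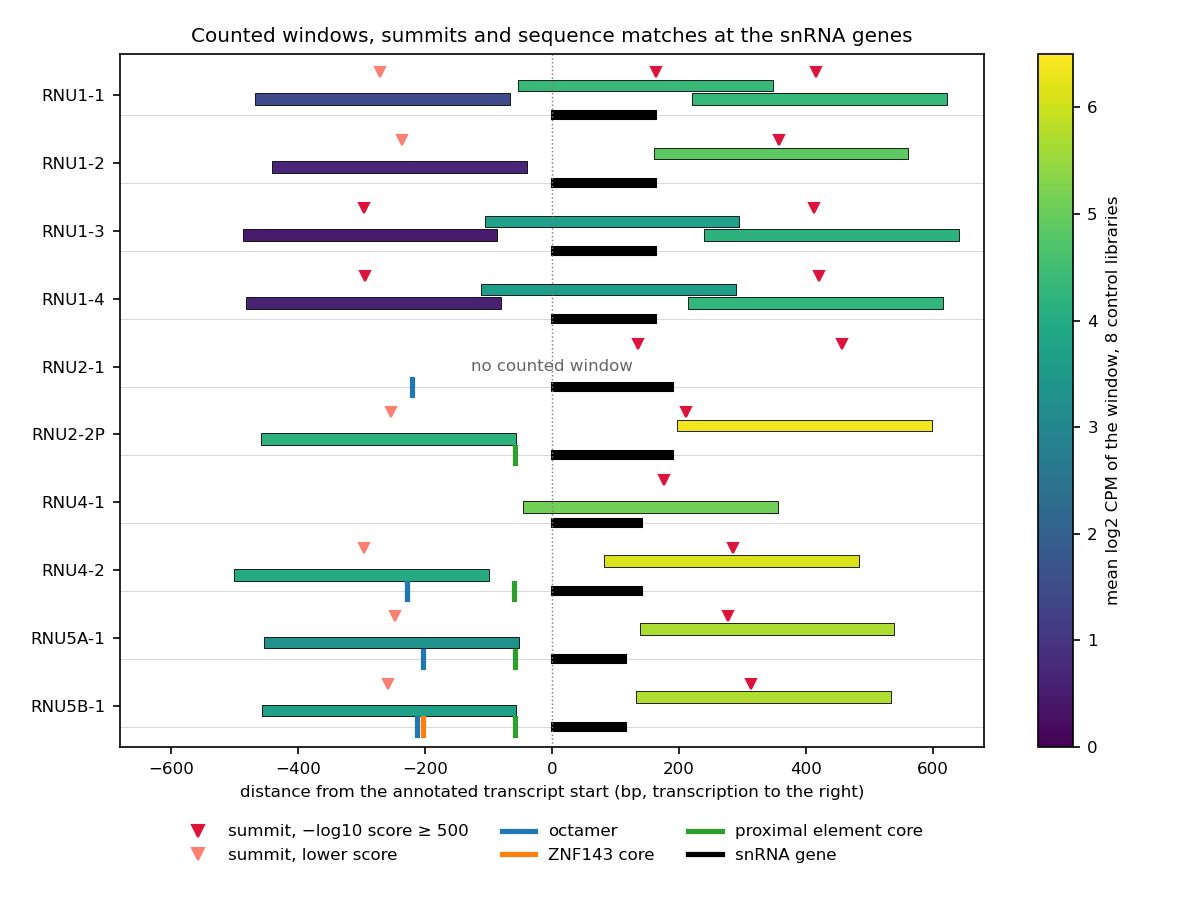
Counted windows (bars coloured by mean log2 CPM of the 8 control libraries), peak summits (triangles, dark when the -log10 score is 500 or more) and motif matches at the 10 genes; the horizontal axis is the distance from the annotated transcript start in bp, with transcription to the right. All 20 summits lie at -236 or farther upstream or at 135 or farther downstream, the windows after the start are brighter than those before it, and RNU2-1 has summits but no window.

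Summits lay on both sides of the start at each gene except RNU2-1 and RNU4-1, which had downstream summits only. The deposited summit list placed 20 summits within 500 bp of the 10 starts, 8 of them upstream, from -296 to -236 bp, and 12 of them 135 to 456 bp downstream. The limits -236 and 135 bp were taken from these 20 summits, so the absence of a summit between them is fixed by that choice. Of the 28746 summits equally close to starts of protein-coding genes, 62.5% lay between these limits. This share is a description and not a test. The summit list has no column names, and its scores are the authors' own and are taken as -log10 values. The highest summit lay downstream at each of the 10 genes, with scores of 961 at RNU4-1 to 2909 at RNU2-2P. These scores ranked at or above the percentile 99.28 of the 259926 summits listed. The 8 upstream summits scored from 27.6 at RNU4-2 to 968 at RNU1-3.

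The counts were also higher after the start at the 8 genes with a window on each side. The downstream window was higher than the upstream window in 16 of 16 libraries at all 8 genes. Levels are in log2 CPM throughout, that is CPM (counts scaled to library size) after TMM scaling with a prior count of 2, and all windows have the same length. The downstream level exceeded the upstream level by 2.01 ± 0.28 (SD, n = 8 control libraries) at RNU5B-1, the smallest difference, and by 4.23 ± 0.53 at RNU1-2, the largest. As mean ratios over the 16 libraries these are 3.87-fold and 20.1-fold. RNU4-2 (4.43-fold), RNU2-2P (4.88-fold) and RNU5A-1 (5.61-fold) lay near RNU5B-1, and the U1 genes lay between 7.42-fold and 20.1-fold. At RNU1-3 and RNU1-4 the authors' peak score per window (-log10 q) went the other way. It was 1590 upstream against 1214 downstream at RNU1-3, and 1496 against 1409 at RNU1-4. Their upstream windows held medians of 9 and 11.5 counts in control libraries. The RNU2-2P start coincides with an annotated start of WDR74, a protein-coding gene, so its 2 windows serve both. RNU4-1 had a single window, which spans its start, so no such ratio could be formed.

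The libraries differed in depth and in contrast. Total counts ran from 2275856 to 11418578 in control and from 3373219 to 13671039 in dTAGV-1. The windows of the top decile by mean level took 46.3% to 47.3% of counts in 12 libraries, and less in control replicates 11 (44%) and 12 (31%) and dTAGV-1 replicates 11 (40.3%) and 12 (37.8%). Among member windows, control replicate 12 was the lowest control library at 15 of 20. No pair of libraries within a group agreed within sampling noise (chi-square per degree of freedom 1.65 to 4.89 over 56 pairs), and all 16 were counted.

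None of the member windows passed the test for a change after dTAGV-1. Of the 20 windows, 19 passed the filter on low counts and 0 were called by edgeR's quasi-likelihood test at a Benjamini-Hochberg adjusted p of 0.05, while 0.215% of the 185040 tested windows were called (397, of which 395 were lower and 2 higher). With a background this low a count of 0 among 19 is near it. At an unadjusted p of 0.05 the count was also 0, and DESeq2 called 0 of them against 508 windows in all. The adjusted p was 1 at each of the 19. Fold changes were negative at 9 of 19 windows (47.4%), against 48.2% of all tested windows and 46.1% of the 38119 tested promoter windows. The median log2 fold change, dTAGV-1 minus control, was 0.0012, with a range from -0.23 to 0.11, against a median of 0.0077 over all tested windows and 0.011 over promoter windows.

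The precision of the fold changes differed between windows. At the 16 tested windows with a median of at least 50 counts in control libraries, the 95% intervals reached no lower than -0.51 and no higher than 0.42 on the log2 scale. At the upstream windows of RNU1-2 and RNU1-4, with medians of 11 and 11.5 counts in control libraries, they ran from -0.72 to 0.46 and from -0.72 to 0.52.

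**Figure D2:**
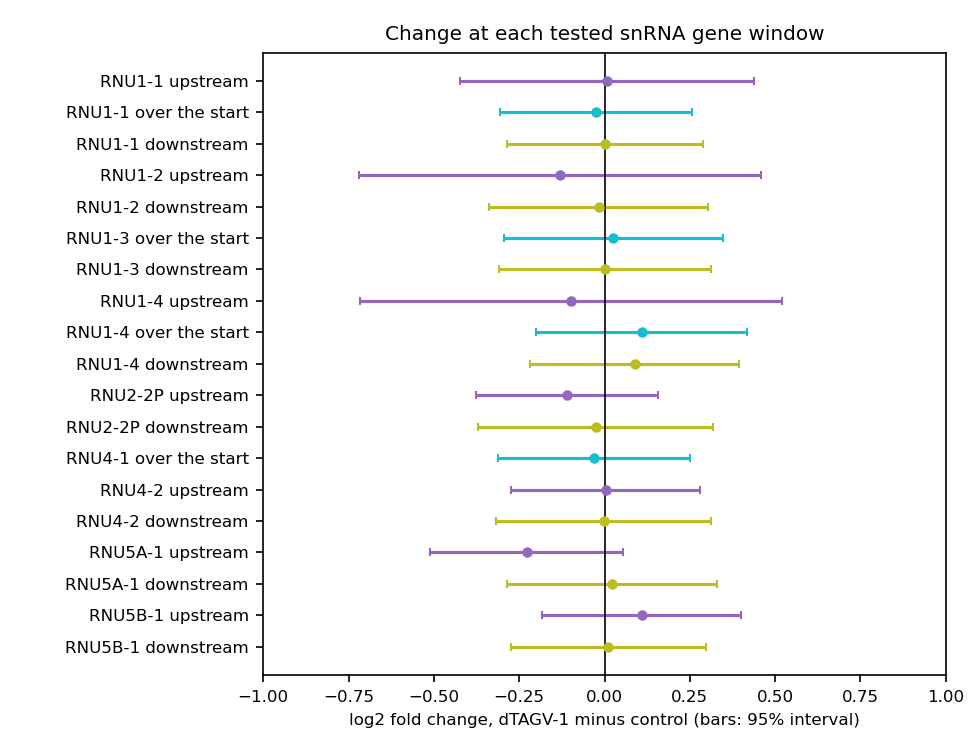
Log2 fold change (dTAGV-1 minus control, edgeR) of the 19 tested member windows with 95% intervals as bars, purple for windows upstream of the start, cyan for windows over it and olive for windows downstream. Every interval spans 0, and the point farthest from 0 is RNU5A-1 upstream at -0.23.

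The U1 genes lie on chromosome 1, with RNU1-2 and RNU1-4 inside CROCC on its sense strand by annotation and RNU1-3 inside the unnamed gene ENSG00000282143. At RNU1-1 the window over the start (chr1:16513938-16514338) held 33 to 268 counts per control library. Its level was 3.65 at the lowest, 4.42 at the median and 4.65 at the highest control library, and 3.80, 4.41 and 4.66 in dTAGV-1. The groups overlapped almost fully, with 4 of 8 dTAGV-1 libraries below the control median, and the lowest library of each group was replicate 12. The log2 fold change was -0.024 (SE 0.14, 95% interval -0.30 to 0.26). The upstream window of RNU1-1 (log2 fold change 0.0081, SE 0.21) and the downstream window (0.0012, SE 0.14) lay as close to 0.

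RNU1-2 had the highest level of the U1 genes by counts, which are uncertain as values of 1 copy. Its downstream window (chr1:16896140-16896540, in an intron of CROCC) measured 3.89, 5.01 and 5.33 in control (lowest, median, highest) and 4.22, 5.02 and 5.33 in dTAGV-1. The medians differed by less than either spread, and replicate 12 was again lowest in both groups. The log2 fold change was -0.018 (95% interval -0.34 to 0.30). The window nearest its start lay upstream (chr1:16895540-16895940) and was faint, at 0.44, 0.65 and 0.95 in control and -0.34, 0.54 and 1.24 in dTAGV-1. There 6 of 8 dTAGV-1 libraries lay below the control median and 3 below every control library, but 1 lay above all of them. The fold change was -0.13 on the log2 scale, within its SE of 0.29.

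RNU1-3 and RNU1-4 are the identical pair, and their values were close. Over the RNU1-3 start (chr1:16666654-16667054) the level was 2.24, 3.92 and 4.14 in control and 3.02, 3.91 and 4.06 in dTAGV-1. Over the RNU1-4 start (chr1:16740404-16740804) it was 2.35, 3.74 and 3.99 in control and 3.12, 3.92 and 4.10 in dTAGV-1. In both windows the lowest control library was replicate 12 and the lowest dTAGV-1 library replicate 11, and the groups overlapped. The log2 fold changes were 0.025 (95% interval -0.30 to 0.35) and 0.11 (-0.20 to 0.42). Downstream they were 0.0014 (SE 0.15) and 0.089 (SE 0.15).

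The upstream windows of this pair were among the least counted of the members. At RNU1-3 (chr1:16667035-16667435) the control libraries held 4 to 15 counts and the dTAGV-1 libraries 6 to 16, and this was the 1 member window that failed the filter and was not tested. At RNU1-4 (chr1:16740034-16740434) they held 3 to 15 and 1 to 19 counts, with a log2 fold change of -0.099 (SE 0.31).

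Of the U2 genes only RNU2-2P could be compared. It lies on chromosome 11 at the 5′ end of WDR74. Its downstream window (chr11:62841212-62841612) had the highest level of all member windows, above 99.9% of the tested windows. Its median was 837.5 counts in control libraries. It measured 5.26, 6.57 and 6.65 in control and 5.71, 6.56 and 6.67 in dTAGV-1. The medians all but coincided, and control replicate 12 lay more than 1 log2 unit under the next control library, at 6.29. The log2 fold change was -0.026 (95% interval -0.37 to 0.32). The upstream window (chr11:62841867-62842267), nearest to the start, measured 3.85, 4.15 and 4.34 in control and 3.65, 4.01 and 4.44 in dTAGV-1. Here 6 of 8 dTAGV-1 libraries lay below the control median and 2 below every control library, for a log2 fold change of -0.11 (SE 0.13, 95% interval -0.38 to 0.16).

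RNU2-1, the U2 gene repeated in tandem in the genome, lies on chromosome 17 (43233787 to 43233977, minus strand), inside CCDC200. The nearest counted windows lay 33605 bp downstream and 98034 bp upstream, so it has no count rather than a count of 0, and no change can be given. Its summits scored 1674 at 135 bp and 855 at 456 bp downstream, at percentiles 99.83 and 99.09. Of the 434 summits in the genome scoring at least 1674, 407 (93.8%) lay inside a counted window and that of RNU2-1 did not. Sequence around these summits is repeated. In a window of 401 bp centred on the stronger one, 15.9% of stretches of 100 bases and 8.36% of stretches of 31 bases occurred once in hg38, with a median of 13 places for a stretch of 31. Around the other summit the shares were 50.7% and 13.7%. The part of this repetition, or of the different libraries behind the lists, in the missing window was not tested.

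The U4 genes lie 1334 bp apart on chromosome 12, on the same strand, and both were highly accessible. The single window of RNU4-1 (chr12:120292882-120293282) measured 4.41, 5.22 and 5.37 in control and 4.92, 5.14 and 5.25 in dTAGV-1. Its dTAGV-1 libraries were the tightest among the 20 member windows (SD 0.12, n = 8) and lay inside the control range, with a log2 fold change of -0.031 (SE 0.14). The RNU4-2 downstream window (chr12:120291421-120291821) measured 5.42, 6.25 and 6.42 in control and 5.66, 6.20 and 6.53 in dTAGV-1, with a log2 fold change of -0.0028 (SE 0.16). The groups overlapped, with 1 dTAGV-1 library above every control library and control replicate 12 below every dTAGV-1 library. RNU4-2 was the higher of the pair in 16 of 16 libraries, by 1.01 ± 0.24 across control and 1.02 ± 0.20 across dTAGV-1 libraries (SD, n = 8). These windows are centred 282 bp after the start at RNU4-2 and 155 bp after it at RNU4-1, so gene and position cannot be told apart. The upstream window of RNU4-2, which covers the octamer, had a log2 fold change of 0.0037 (95% interval -0.27 to 0.28).

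The U5 genes lie on chromosome 15, RNU5A-1 in an intron of PARP16 and RNU5B-1 between genes. Their downstream windows were nearly equal, at medians of 5.78 and 5.76 in control and 5.80 and 5.74 in dTAGV-1. RNU5A-1 (chr15:65296189-65296589) ran from 4.66 to 6.0 in control and from 5.29 to 5.98 in dTAGV-1, with a log2 fold change of 0.022 (SE 0.15). RNU5B-1 (chr15:65304809-65305209) ran from 5.26 to 5.89 and from 5.40 to 6.0, with 0.011 (SE 0.14). Neither group separated from the other at either gene.

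The upstream windows, which hold the octamer blocks printed above, had fold changes of opposite sign, neither past the test. RNU5A-1 (chr15:65295598-65295998) measured 2.88, 3.35 and 3.57 in control and 2.72, 3.10 and 3.71 in dTAGV-1. Here 7 of 8 dTAGV-1 libraries lay below the control median, but only 2 lay below the lowest control library and 1 lay above the highest. The log2 fold change of -0.23 (SE 0.14, 95% interval -0.51 to 0.055) had the smallest unadjusted p of all members, 0.112 by edgeR, and an adjusted p of 1. Without replicates 11 and 12 of both groups it was -0.36 with an edgeR adjusted p of 0.691. RNU5B-1 (chr15:65304220-65304620), which holds the ZNF143 core, measured 3.24, 3.76 and 4.12 in control and 3.36, 3.85 and 4.20 in dTAGV-1, and 3 dTAGV-1 libraries lay above every control library. Its log2 fold change was 0.11 (SE 0.15). The 95% interval of -0.18 to 0.40 places its treated level between 88.1% and 132% of control.

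RNU5A-1 was lower than RNU5B-1 upstream in 15 of 16 libraries. Their difference was -0.40 ± 0.29 across the 8 control libraries and -0.74 ± 0.35 across the 8 treated ones (SD), so that it changed by -0.33. This was 1 of 8 differences between copies, chosen after the values were seen, and its two-sided exact permutation p over the 12870 assignments of libraries was 0.0591, or 0.472 after Benjamini-Hochberg adjustment over the 8. Without replicates 11 and 12 of both groups the change was -0.44 (exact permutation p = 0.0346). With 1 library left out it ran from -0.41 to -0.25 (exact permutation p = 0.021 to 0.116). That p was below 0.05 without control replicate 11 and without dTAGV-1 replicates 10, 11 and 15 in turn. These p-values were not adjusted over the 8 differences, and their settings were added after seeing the data. The other 7 differences between copies, in the U1, U4 and downstream U5 windows, changed by -0.060 to 0.23 with exact permutation p of 0.515 or more. Those between RNU1-3 and RNU1-4 compare windows in which no stretch of 31 or 100 bases occurs once in hg38. Their counts are uncertain as values of 1 copy, so these differences cannot tell whether 1 copy changed.

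**Figure D3:**
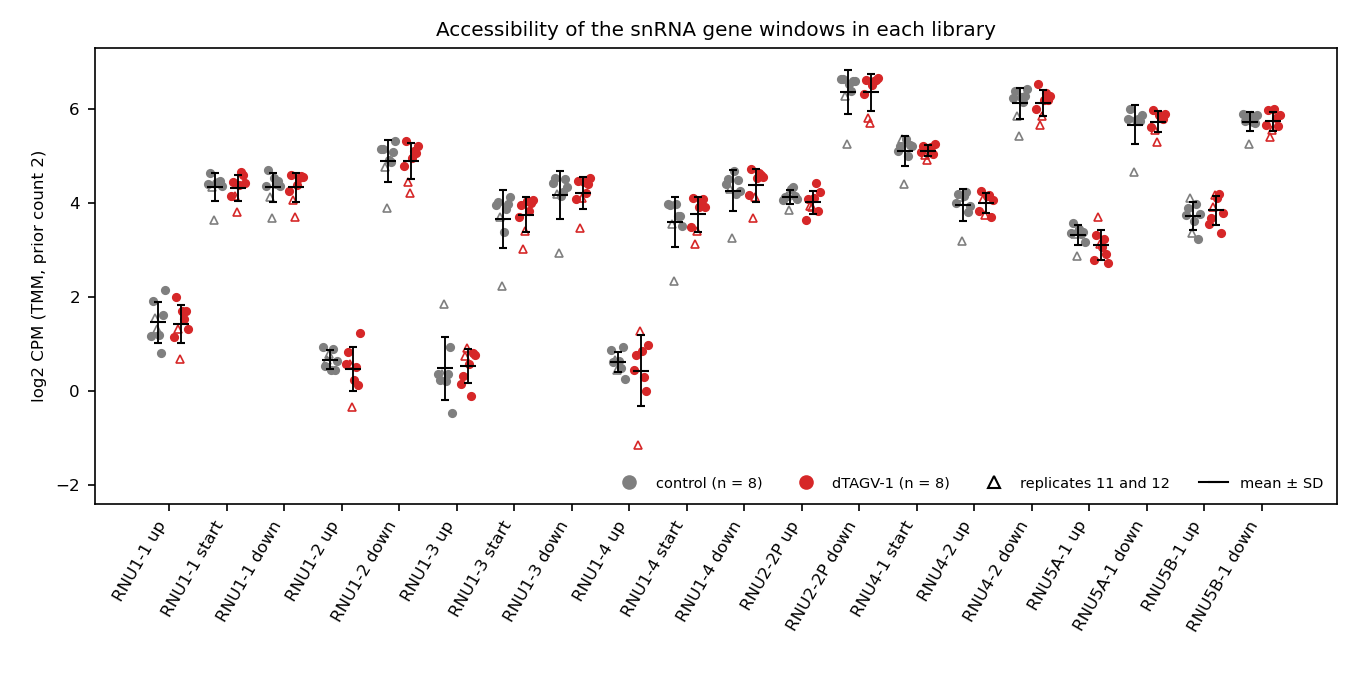
Log2 CPM (TMM scaling, prior count 2) of the 20 member windows in each of the 8 control (grey) and 8 dTAGV-1 (red) libraries, with the mean and SD as bars and replicates 11 and 12 as open triangles. The groups overlap at each window, and the triangles of control replicate 12 are the low points of the downstream windows.

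The genes fell into an order by the strongest window of each, here in control means with SD (n = 8). RNU2-2P (6.37 ± 0.47) came first and RNU4-2 (6.13 ± 0.33) next, the former higher in 14 of 16 libraries. RNU5B-1 (5.73 ± 0.20) and RNU5A-1 (5.67 ± 0.42) followed and did not differ beyond their spread, with RNU5B-1 higher in 7 of 16 libraries. RNU4-1 (5.12 ± 0.31) was above RNU1-2 (4.90 ± 0.44) in 12 of 16 libraries, a mean difference (0.22) below its SD of 0.27 over the 16. RNU1-2 was above RNU1-1, the next in order, in 16 of 16 libraries. RNU1-1 (4.35 ± 0.30), RNU1-4 (4.27 ± 0.44) and RNU1-3 (4.17 ± 0.51) closed the order, and each of them differed from its neighbour by less than the SD of the difference. In the dTAGV-1 means the order was the same except that RNU1-4 (4.38) lay above RNU1-1 (4.33). The order is one of counts, which at the U1 genes are uncertain as values of 1 copy. The windows also lie at different places around the start. By the authors' -log10 q the RNU1-2 downstream window (2360) ranked above every other member window.

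The U1 windows had few counts for the rank of their peaks, and the other members had many. For each window the count table also gives the authors' -log10 q, and its mean level over the 16 libraries was set beside that of the 1580 to 2142 windows of nearly the same -log10 q rank. At the 11 U1 windows only 0.565% to 3.11% of such windows were lower. At the 9 windows of RNU2-2P, the U4 and the U5 genes 88.7% to 99.6% were lower. The RNU1-3 upstream window, itself not tested, had a -log10 q of 1590 (percentile 99.2 of all windows). Its level lay at percentile 5.96 of the tested windows, where windows of like q had a median of 5.41 log2 CPM. Against the same tested windows RNU1-1 upstream (744, percentile 96.6 by q) lay at percentile 51.1 by level, and the downstream U1 windows lay between percentiles 94.8 and 97.8.

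The uniqueness of the sequence split along the same line, in degree at RNU1-1 and RNU1-2 and fully at RNU1-3 and RNU1-4. In hg38 (194 sequences without the alternate ones), no stretch of 31 or 100 bases from any window of RNU1-3 or RNU1-4 occurred only once, and a stretch of 31 occurred in a median of 4 or 5 places. At RNU1-1 and RNU1-2 from 60.6% to 93% of stretches of 100 bases, and 24.5% to 43.1% of those of 31, occurred once. At RNU2-2P, the U4 and the U5 genes all stretches of 100 did, and 77.4% or more of those of 31. How reads matching several places were treated is not given in the sources used here, and the part of repeated sequence in the low U1 counts was not tested. Counts of the U1 copies, RNU1-3 and RNU1-4 above all, are therefore uncertain as values of 1 copy.

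**Figure D4:**
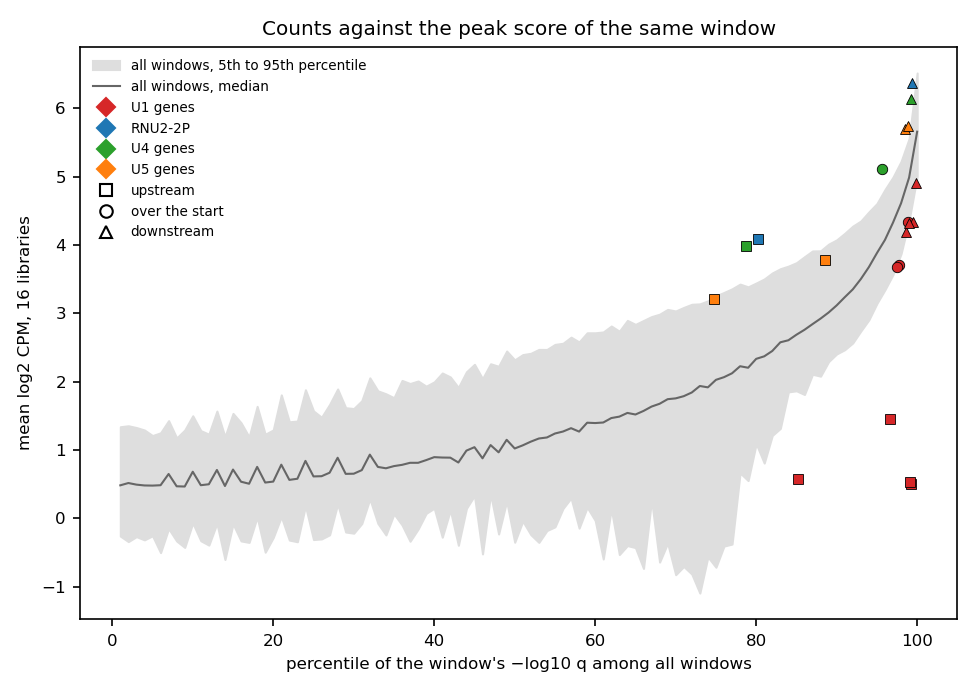
Mean log2 CPM over the 16 libraries against the percentile of the authors' -log10 q among all windows, with the median (line) and the 5th to 95th percentile (grey) of all windows and the 20 member windows as symbols (red for U1, blue for RNU2-2P, green for U4, orange for U5; squares upstream, circles over the start, triangles downstream). The red symbols lie under the line at 11 of 11 windows, and the others lie above it at 9 of 9.

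Counted windows just outside the limit, with centres 500 to 1000 bp from a start, lay at 3 genes and are given as a description. Their log2 fold changes were 0.25 at RNU1-1 (965 bp downstream, median of 16.0 counts in control libraries), 0.031 at RNU4-2 (851 bp downstream) and 0.0069 at RNU5B-1 (at -903 bp). Just inside it lay the RNU1-3 window at 439 bp (0.0014) and the RNU1-1 window at 421 bp (0.0012).

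Other genes of the same pathway were counted from 4 lists, beside calls at 0.215% of all tested windows and, among the 38119 tested promoter windows, 214 lower and 2 higher. Of 34 other snRNA genes read by RNA polymerase II (U5 variants, the minor spliceosome's RNU11, RNU12 and RNU4ATAC, RNU7-1 and the RNVU1 genes), 28 had a window, and 0 of 48 tested windows were called, with 0 at an unadjusted edgeR p below 0.05 and 0 by DESeq2. Their median log2 fold change was 0.00089. Of 30 tested windows at 15 genes for snRNA promoter factors, 1 was called lower and 0 higher (median -0.022), and of 68 at 35 genes for snRNP proteins 2 were lower and 0 higher (median -0.00050). Of 16 windows at 8 small RNA genes read by RNA polymerase III from similar promoters, 1 was lower and 0 were higher (median -0.015).

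The 4 called windows lay at genes around the snRNAs. At SNAPC3, a subunit of the SNAPc complex that reads the proximal element, the level fell from 5.68 ± 0.44 to 4.83 ± 0.39 (SD, n = 8), a change of -0.87 on the log2 scale (edgeR adjusted p = 0.00234). At SF3A1, a protein of the U2 particle, it fell from 4.25 ± 0.39 to 3.57 ± 0.26 (-0.74, edgeR adjusted p = 0.00365). At PRPF4, a protein of the U4 and U6 particle, it fell from 5.54 ± 0.31 to 4.90 ± 0.23 (-0.66, edgeR adjusted p = 0.0209). At RNU6-7, a U6 gene, it fell from 3.88 ± 0.25 to 3.23 ± 0.25 (-0.67, edgeR adjusted p = 0.00698). With the replicate number as a block, and also without replicates 11 and 12 of both groups, 8 windows of these lists were called. No test compared these genes with the 10 snRNA genes.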

How the data were processed

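ATAC-seq libraries of the degron clone were compared as 8 control against 8 dTAGV-1 libraries (replicates 9 to 16). Reads were processed with cutadapt 1.8.1, Bowtie2 2.4.4 and SAMtools 1.9 on hg38, per the submitters' processing notes. The peak caller, read filters, the treatment of reads matching several places, the Tn5 shift and the counting tool are not given in the sources used here. The deposited table holds raw counts per window of 401 bp, and the number of unused columns was 0. It also holds the authors' -log10 q per window, and the deposited summit list, which has no header, holds a score per summit taken as -log10. Both were used only to describe and rank within their own list, and they start at 2.0.

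The quasi-likelihood test of edgeR 4.0.16 was run in R 4.3.3 after filterByExpr and TMM scaling. Benjamini-Hochberg adjustment covered all 185040 tested windows, with a threshold of 0.05. The test was also run on simulated counts drawn with the same dispersion for all windows, and no result here rests on that run. Standard errors came from the F statistic, and 95% intervals from the t distribution. Alternatives were DESeq2 1.42.0, RLE scaling, no filter, the replicate number as a block, each library left out, replicates 11 and 12 left out, other distances and a prior count of 0.5. The alternatives for the difference between the U5 copies were added after seeing the data. The members, the lists, the motifs and the leaving out of replicates 11 and 12 were chosen with earlier results of these data known. All 10 genes are named with every window. From the 4 other lists only called windows are named. Overlapping windows of RNU1-1, RNU1-3 and RNU1-4 share 20 to 127 bp and hence counts. The RefSeq promoter table held none of the 10 genes, so sequences were read from hg38 by coordinate. Stretches of 31 and 100 bases were searched on both strands.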

Additional observations from a re-analysis of the deposited data

Results flagged for a closer look

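In 12 of the 40 sets of 8 libraries (20 member windows in 2 groups), the lowest library lay apart from the others by a gap that Dixon's test would flag in about 1 set in 20 by chance. Of these, 11 were control replicate 12 and 1 was dTAGV-1 replicate 11. Control replicate 12 is the shallowest library, with 2275856 counts, and has the smallest share of counts in the top decile of windows, 31%. The part of either in these values was not tested.

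At the U1 genes control replicate 12 measured 3.65 log2 CPM over the RNU1-1 start, where the other control libraries lay between 4.34 and 4.65. It measured 3.89 at the RNU1-2 downstream window (others 4.78 to 5.33), 2.24 over the RNU1-3 start (3.38 to 4.14) and 2.95 downstream of it (4.15 to 4.53). At RNU1-4 it measured 2.35 over the start (others 3.53 to 3.99) and 3.26 downstream (4.20 to 4.68).

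At the other genes the same library measured 5.26 at the RNU2-2P downstream window (others 6.29 to 6.65), 4.41 at RNU4-1 (5.01 to 5.37) and 3.20 at the RNU4-2 upstream window (3.82 to 4.24). It measured 4.66 at the RNU5A-1 downstream window (others 5.74 to 6.0) and 5.26 at that of RNU5B-1 (5.70 to 5.89). The remaining value was dTAGV-1 replicate 11 at the RNU1-3 downstream window, at 3.48 with the other dTAGV-1 libraries between 4.09 and 4.54.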

How the results depend on the processing

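The count of 0 called member windows held under every alternative run, including 5 windows within 250 bp and 22 within 1000 bp of a start. The number of windows called in all was 397, 508 with DESeq2, 398 with RLE scaling and 363 with no filter. It was 753 with the replicate number as a block and 781 without replicates 11 and 12. With 1 library left out it ran from 321 to 632, the latter without control replicate 12. The 4 windows called in the other lists became 8 with the replicate block and 8 without replicates 11 and 12, and 3 to 5 with 1 library left out; the cause was not tested.

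Same-numbered libraries had correlated deviations of 0.028 to 0.34, with 3 of 8 numbers below 0.1, and 5 of 8 libraries matched their own number best, so the numbers are not taken as pairs. In the block, RNU1-3 downstream was -0.010. Without replicates 11 and 12 it was -0.0082, RNU4-2 upstream was -0.025 and RNU5A-1 downstream was -0.00070. Those 4 of 95 values changed sign, as did 71 of 304 with 1 library left out, and none was called. Left-out libraries gave ranges of -0.11 to 0.14 at RNU1-1 upstream, -0.082 to 0.030 over its start and -0.054 to 0.062 downstream, -0.10 to 0.052 at RNU1-2 downstream, -0.059 to 0.099 over the RNU1-3 start and -0.085 to 0.076 downstream, -0.19 to 0.021 at RNU1-4 upstream, -0.13 to 0.047 at RNU2-2P downstream, -0.10 to 0.0047 at RNU4-1, -0.058 to 0.047 at RNU4-2 upstream and -0.078 to 0.055 downstream, -0.071 to 0.072 at RNU5A-1 downstream and -0.042 to 0.053 at RNU5B-1 downstream. RNU5A-1 upstream stayed between -0.36 and -0.18 in all of them, with adjusted p of at least 0.691. The tested upstream U1 windows hold 1 to 49 counts per library and have the widest intervals among the members.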
